A study of Mus musculus with 6 samples.

Results

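The genes described are 10 transcripts that low oxygen is known to raise and that lie outside glycolysis: Ndrg1, Bnip3, Bnip3l, Vegfa, Adm, Ero1a (listed under its older symbol Ero1l), Car9, Car12, Ankrd37 and Stc1. They were found by symbol in the deposited tables, where 10 of 10 were present among 22300 named genes. They took 11 of 35556 rows, since Bnip3l had 2, and for each gene the row with the highest mean over the arrays was read. The samples were mouse mesenchymal stem cells, marrow stromal cells that grow attached and can turn into bone, cartilage or fat cells, and their RNA was measured on Affymetrix arrays. The first group, labelled MSC21, was a mixed population extracted from mouse bone marrow, and the second, Clone 4L.1.4, a tertiary clone derived from MSC21; each had 3 arrays from independent cell samples grown to confluence in the same stem cell medium. The labels give no age, strain, gene alteration, drug or oxygen level for either group, and 1 population and 1 clone were compared. Whether separate animals were used is not stated, and p-values therefore set a difference only against the spread among these cultures.

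In normal oxygen the prolyl hydroxylases of the Egln family mark the alpha subunits of hypoxia-inducible factor (HIF) for destruction through the Vhl ligase. When oxygen falls the alpha subunits persist, pair with Arnt and bind a short DNA element near their target genes. The targets outside glycolysis carry out varied tasks, among them removal of mitochondria (Bnip3, Bnip3l), growth of vessels (Vegfa, Adm), oxidative protein folding (Ero1a) and control of pH (Car9, Car12). In marrow stroma this programme is known for its place in the low oxygen of the marrow cavity, and several of the genes also answer to other signals, such as stress of the endoplasmic reticulum.

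The core of the HIF-bound element reads ACGTG or GCGTG. It was looked for on both strands in the 250 bases before each start in RefSeq's promoter table of GRCm38.p6, with overlapping matches counted as 1 place; ACGTG overlaps the E-box where the letters are CACGTG. Of the 10 genes 7 matched that table, all but Ndrg1, Bnip3l and Stc1, with 8 starts in all. The upstream sequences of 4 genes are shown because they span the range from many matches to none and from a large fall to no call; each runs 5′ to 3′ on the gene's strand, and capitals mark the matches. They lie at chr7:138909507-138909756 (minus strand) for Bnip3, chr14:45318573-45318822 (minus strand) for Ero1a, chr17:46032378-46032627 (minus strand) for the upstream start of Vegfa and chr4:43506776-43507025 (plus strand) for Car9.
Bnip3: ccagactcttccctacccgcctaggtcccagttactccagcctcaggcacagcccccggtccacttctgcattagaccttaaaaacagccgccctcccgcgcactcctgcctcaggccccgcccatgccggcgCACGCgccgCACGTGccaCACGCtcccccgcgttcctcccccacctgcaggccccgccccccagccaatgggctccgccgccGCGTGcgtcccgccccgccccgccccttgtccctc
Ero1a: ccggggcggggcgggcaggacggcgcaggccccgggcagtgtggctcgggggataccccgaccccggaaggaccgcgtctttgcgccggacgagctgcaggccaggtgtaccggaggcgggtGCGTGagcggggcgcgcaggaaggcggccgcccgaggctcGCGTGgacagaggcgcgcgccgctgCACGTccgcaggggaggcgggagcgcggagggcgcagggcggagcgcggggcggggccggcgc
Vegfa: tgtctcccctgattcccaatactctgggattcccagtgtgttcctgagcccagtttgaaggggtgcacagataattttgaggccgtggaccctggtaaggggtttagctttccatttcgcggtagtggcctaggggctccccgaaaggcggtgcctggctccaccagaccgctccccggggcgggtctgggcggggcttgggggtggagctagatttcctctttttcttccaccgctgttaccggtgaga
Car9: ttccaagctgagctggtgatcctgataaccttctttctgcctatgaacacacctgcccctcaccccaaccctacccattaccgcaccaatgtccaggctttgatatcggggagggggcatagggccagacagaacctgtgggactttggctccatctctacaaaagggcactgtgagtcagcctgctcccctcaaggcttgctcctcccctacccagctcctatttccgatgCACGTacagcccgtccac
Bnip3 had 4 places, the first at position -117 and the last at -35 from the start, and Ero1a had 3, at -128, -88 and -63. Vegfa had none before its upstream start and 2 before a further start within the gene. Car9 had 1, at -18. Of the others Ankrd37 had 3, Adm had 2 and Car12 none. At least 1 place was present in 6 of these 8 windows, against 38.6% of all 32851 promoters in the table, and at least 3 in 3 of 8, against 4.65%. The windows were not matched on base composition, and a match describes letters, not a bound site.

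The comparison asked how expression in the population differed from that in a clone derived from it. Of the 10 genes 7 were lower in the clone, 1 was higher and 2 were not called, by limma's moderated test with a Benjamini-Hochberg adjusted p under 0.05, the adjustment running over all rows. Ndrg1 fell furthest, 13.0-fold, followed by Ero1a (4.12-fold), Bnip3 (3.57-fold) and Vegfa (2.08-fold). Car12, Ankrd37 and Bnip3l fell by less than 1.5-fold. Stc1 went the opposite way and rose 8.13-fold. The background was 10.9% of all rows lower and 12.8% higher, and among 11431 named genes whose mean lay above the median of all rows it was 25.1% lower and 26.1% higher; 8 of the 10 genes had such a mean. At least a 2-fold fall was seen in 4 of the 10, where 1.69% of all rows and 4.63% of the named genes above the median level had one. The median log2 fold change of the 10 was -0.43, against 0.0044 for all rows and 0.028 for the named genes above the median level.

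All 3 clone arrays lay below all 3 population arrays in 8 of the 10 genes, which held for 17.0% of all rows, and above them in 1, which held for 20.2%. Among the 11431 named genes above the median level, they lay below in 3601 and above in 4003. Levels below are log2 values on the authors' RMA scale, in which a value is read against the same row on the other arrays. The array medians lay between 5.19 and 5.25 and the lower quartiles between 4.54 and 4.58, and the size of a difference is not exact for a gene near these levels. Levels of different genes are not comparable on this scale. In bulk samples such as these, fewer cells of a type and less RNA per cell cannot be told apart.

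**Figure D1:**
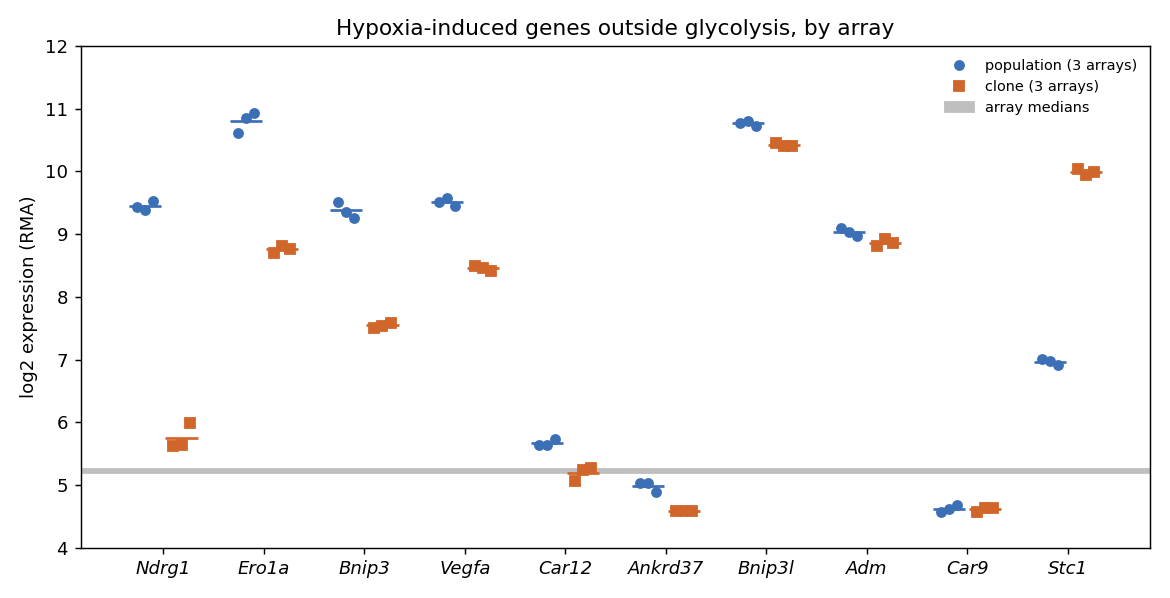
Log2 expression of the 10 genes (y axis) in each of 3 population arrays (circles) and 3 clone arrays (squares), ordered by log2 fold change; lines are group means and the grey band the range of array medians. Ndrg1, Ero1a, Bnip3 and Vegfa drop clearly in the clone, Stc1 rises, and Car9 and Ankrd37 lie below the band in both groups.

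Ndrg1 encodes a cytoplasmic protein of the NDRG family that is induced by low oxygen, by differentiation and by stress. Its levels were 9.43, 9.38 and 9.52 in population arrays 1 to 3 and 5.61, 5.63 and 5.99 in clone arrays 1 to 3. The clone arrays stood close to the array medians and far below the population, with clone array 3 somewhat above the other two. The log2 fold change was -3.70 ± 0.11 (SE; limma adjusted p = 3.74e-06), and 8 of 35556 rows fell further. With the clone near the array medians, the size of this fall is not exact. Ndrg1 lies on chromosome 15, whose 442 named genes above the median level had a median log2 fold change of -0.50; 69.7% of them were lower in the clone. With every chromosome centred on its own median, the log2 fold change of Ndrg1 was -3.20 (limma adjusted p = 2.17e-08). This fit, here and below, kept only rows placed on a chromosome, so its p-values and counts also reflect a different set of rows. With only rows that had a symbol and no centring, limma gave Ndrg1 an adjusted p of 3.5e-08.

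Bnip3 and Bnip3l encode related proteins of the outer mitochondrial membrane that recruit the autophagy machinery to mitochondria. Bnip3 stood at 9.52, 9.36 and 9.26 in the population arrays and at 7.50, 7.54 and 7.59 in the clone arrays. The groups were far apart, and the spread was wider in the population (SD 0.13) than in the clone (SD 0.04). Bnip3 changed by -1.84 ± 0.07 (log2 fold change ± SE, limma adjusted p = 1.33e-05). Bnip3l stood at 10.78, 10.80 and 10.72 in the population and at 10.45, 10.40 and 10.40 in the clone. This small gap was several times the spread within either group. Its log2 fold change was -0.35 ± 0.05 (limma adjusted p = 0.00272), and the second row for the gene gave -0.33 ± 0.05 (adjusted p = 0.0028). The files do not say whether either row measures a near-identical copy of the gene, so which transcript each value belongs to is uncertain.

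Ero1a encodes the oxidase of the endoplasmic reticulum that reoxidises protein disulphide isomerase. Its levels were 10.62, 10.85 and 10.93 in the population and 8.71, 8.81 and 8.76 in the clone. Population array 1 was the lowest of its group but well above every clone array. The log2 fold change was -2.04 ± 0.09 (limma adjusted p = 1.75e-05). Ero1a lies on chromosome 14, where the median log2 fold change of 386 named genes above the median level was 0.045.

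Vegfa encodes the main growth factor of blood vessels, and Adm the peptide adrenomedullin, which widens vessels and acts on their endothelium. Vegfa stood at 9.51, 9.58 and 9.44 in the population arrays and at 8.49, 8.46 and 8.42 in the clone arrays, a log2 fold change of -1.05 ± 0.06 (limma adjusted p = 3.82e-05). The groups did not come near each other, and Vegfa lies on chromosome 17, where 8.12% of the named genes above the median level were lower and 46.2% higher. Adm stood at 9.09, 9.03 and 8.97 in the population and at 8.80, 8.92 and 8.86 in the clone. The clone arrays were all lower, but the nearest arrays of the groups were close. The log2 fold change of Adm was -0.17 ± 0.06 with a 95% interval from -0.31 to -0.04, and it was not called (limma adjusted p = 0.0755). It was called when arrays were centred on their medians (adjusted p = 0.0472), when rows without a symbol were left out (0.0462) and when chromosomes were centred (0.00153), in limma fits with log2 fold changes of -0.21, -0.17 and -0.33.

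Car9 and Car12 encode membrane carbonic anhydrases that hydrate carbon dioxide at the cell surface. Car9, often used as a marker of hypoxic tissue, stood at 4.56, 4.62 and 4.68 in the population and at 4.57, 4.63 and 4.63 in the clone. The groups overlapped, at the level of the arrays' lower quartiles. The log2 fold change of Car9 was -0.0081 with a 95% interval from -0.14 to 0.12 (limma adjusted p = 0.95). Car12 stood at 5.63, 5.63 and 5.73 in the population and at 5.06, 5.23 and 5.28 in the clone, so the clone arrays lay around the array medians. It fell by 0.47 ± 0.07 on the log2 scale (limma adjusted p = 0.00369), a size that is not exact at such levels.

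Ankrd37 encodes a small ankyrin repeat protein. It stood at 5.03, 5.02 and 4.89 in the population and at 4.59 in each of the 3 clone arrays. Both groups lay below the array medians, and the clone arrays were at the lower quartiles. Its log2 fold change of -0.39 ± 0.06 (limma adjusted p = 0.00297) is therefore not exact in size.

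Stc1 encodes stanniocalcin 1, a secreted glycoprotein first known as a calcium-regulating hormone of fish. Its levels were 7.01, 6.97 and 6.91 in the population and 10.03, 9.94 and 9.99 in the clone. All 6 arrays were well above the array medians, and the spread within a group was small (SD 0.05 in each). The log2 fold change was 3.02 ± 0.05 (limma adjusted p = 5.83e-07), and 24 of 35556 rows rose further. By its symbol Stc1 shares chromosome 14 with Ero1a and Bnip3l, which fell.

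**Figure D2:**
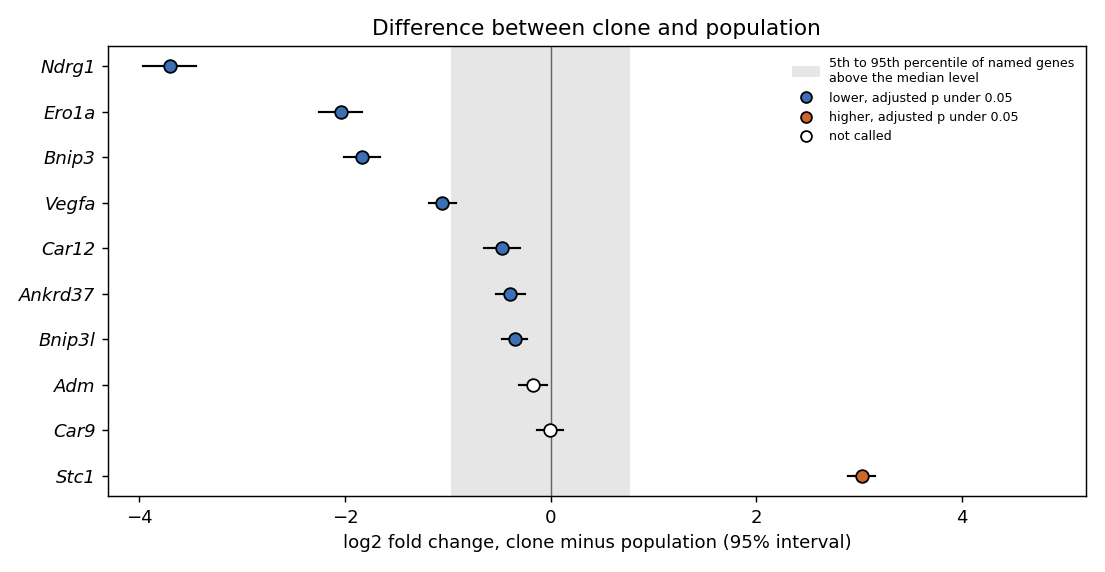
Log2 fold change of the 10 genes, clone minus population (x axis), with limma's 95% intervals; filled points passed an adjusted p under 0.05 and the grey band spans the 5th to 95th percentile of named genes above the median level (-0.96 to 0.76). Ndrg1, Ero1a, Bnip3 and Vegfa lie below the band, Stc1 above it and the other 5 within it.

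Ranked by fold change, the 95% interval of Ndrg1 (-3.96 to -3.44) was apart from that of Ero1a (-2.25 to -1.83), which overlapped that of Bnip3 (-2.01 to -1.66). Vegfa came next (-1.19 to -0.92). The intervals of Car12 (-0.65 to -0.30), Ankrd37 (-0.53 to -0.25) and Bnip3l (-0.47 to -0.23) overlapped, so the order of these 3 is not resolved.

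Related genes were set against each other by the log2 ratio within each array, in 5 pairs. With 3 arrays a group, the exact two-sided permutation test cannot give a p below 0.1, and each of the 5 pairs gave p = 0.1 (0.1 after Benjamini-Hochberg adjustment). The Bnip3 to Bnip3l ratio was 2.80-fold lower in the clone, with a change of -1.49 from -1.39 ± 0.11 to -2.87 ± 0.07 (log2 ratio, mean ± SD, n = 3 each). The groups were apart in every array. The Stc1 to Stc2 ratio rose from 0.14 ± 0.07 to 4.03 ± 0.12, or 14.8-fold, without overlap of the groups. Stc2, the second stanniocalcin gene, which the stress factor Atf4 is known to induce, fell itself by 0.87 ± 0.08 on the log2 scale (limma adjusted p = 0.000386).

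The Ndrg1 to Ndrg2 ratio changed by -1.61, and both genes were lower in the clone: Ndrg2, a family member linked to differentiation, went from 8.11 ± 0.24 to 6.01 ± 0.07 (limma adjusted p = 5.51e-05). The Ero1a to Ero1b ratio changed by -1.07. Ero1b, the second oxidase of this kind, changed by -0.98 (limma adjusted p = 0.000128), but by -0.41 (adjusted p = 0.000584) with chromosomes centred; it lies on chromosome 13, where 72.1% of the named genes above the median level were lower. The Car9 to Car12 ratio changed by 0.47, where Car9 itself had a log2 fold change of -0.0081 and Car12 one of -0.47.

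**Figure D3:**
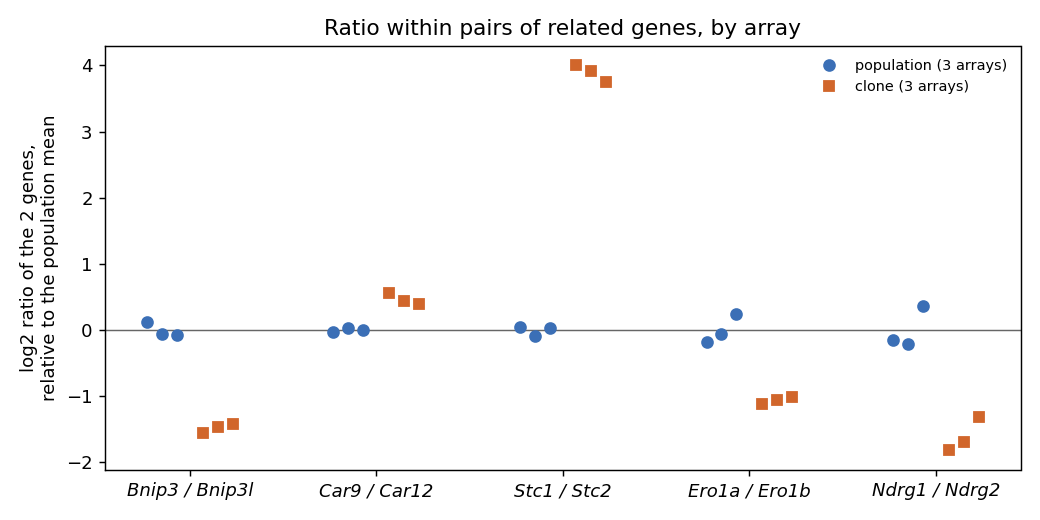
Log2 ratio of the genes of each of 5 pairs, relative to the population mean of that ratio (y axis), in each population array (circles) and clone array (squares). The clone arrays lie apart from the population arrays in each pair, above 0 for Stc1 to Stc2 and Car9 to Car12 and below 0 for the others.

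The HIF factors and oxygen sensors are the upstream part of the pathway: of 10 measured, 4 fell, 1 rose and 5 were not called (median log2 fold change -0.16). Of the named genes above the median level, where 8 of the 10 lay, 25.1% fell and 26.1% rose. Hif1a, the main alpha subunit, changed by -0.59 ± 0.05 (limma adjusted p = 0.000378) from 10.26 ± 0.07. The hydroxylase genes Egln3 and Egln1, themselves HIF targets, changed by -2.12 ± 0.06 and -0.87 ± 0.06, the former inexact at a clone level of 4.79, while the third hydroxylase gene Egln2 rose by 0.38 ± 0.05 (limma adjusted p = 0.00133). Arnt, the partner subunit, changed by -0.57, but it lies on chromosome 3, where 61.3% of the named genes above the median level were lower, and with chromosomes centred it changed by -0.15 and was not called (adjusted p = 0.117). The log2 fold changes of those not called were -0.18 for Vhl, -0.13 for Hif3a, -0.095 for the asparaginyl hydroxylase gene Hif1an, 0.049 for Arnt2 and 0.095 for Epas1, which encodes HIF-2 alpha; Hif3a and Epas1 lay below the array medians in both groups. With chromosomes centred Vhl (-0.23, limma adjusted p = 0.0147) and Hif3a (-0.28, 0.00316) were called, and Egln2 was at 0.23; Vhl was also called without population array 3 (-0.24, 0.0425).

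Most other hypoxia-induced genes outside glycolysis were lower, in a list chosen, like all lists here, with earlier results of these data known. Of 35 measured, 23 fell, 5 rose and 7 were not called, with a median log2 fold change of -0.79. Of the named genes above the median level, where 31 of the 35 lay, 25.1% fell and 26.1% rose. Vldlr, the receptor for very low density lipoprotein, fell most, from 9.32 ± 0.05 to 5.50 ± 0.06 (-3.81; limma adjusted p = 5.83e-07). Ddit4, an inhibitor of the growth kinase mTORC1, changed by -2.03 ± 0.10 and Plod2, a collagen lysyl hydroxylase, by -1.83 ± 0.07. Genes of this list that rose, as Stc1 did, were led by Angptl4, a secreted inhibitor of lipoprotein lipase, which rose by 1.18 ± 0.17 (limma adjusted p = 0.00271), Ppp1r3c, a glycogen-targeting subunit of a phosphatase, by 0.93 ± 0.14 and the haem oxygenase gene Hmox1 by 0.84 ± 0.14. The cyclin gene Ccng2 (0.58) and Wsb1 (0.42), named after their values were seen, completed the 5. Glycolytic targets of HIF gave 18 lower and 0 higher of 21 by limma, or 19 and 1 at an unadjusted p under 0.05. Slc16a3, the lactate exporter, was at -3.56, Pfkp at -2.69 (-2.13 with chromosomes centred) and Pdk1 at -1.93. The clone levels of Vldlr (5.50) and Slc16a3 (5.56) were near the array medians, so the sizes of their falls are not exact. Eno2, named after its value was seen, was higher in all 3 clone arrays but not called by limma (adjusted p = 0.145).

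Among 18 genes that act with Bnip3 in mitophagy or as its relatives in the Bcl2 family, 4 fell and 4 rose (median -0.025). Of the named genes above the median level, where 17 of the 18 lay, 25.1% fell and 26.1% rose. The survival gene Bcl2l1 rose by 0.78 ± 0.05 and Bcl2 by 0.62 ± 0.08, while Mcl1 changed by -0.70 ± 0.05 (limma adjusted p = 0.00015), or -0.29 with chromosomes centred. Bcl2 rose from 5.19, at the array medians, so its size is not exact. Sqstm1, an autophagy receptor, changed by -0.25 (-0.45 with chromosomes centred) and Gabarapl1, named after its value was seen, by -0.22. Gabarapl2 was called at -0.44, but at -0.087 with its rows averaged it was not (limma adjusted p = 0.333). The mitophagy receptor gene Fundc1 was called at 0.27 (limma adjusted p = 0.0305), a call that ended without population array 2, population array 3 or any single clone array (adjusted p = 0.0714 to 0.0865), and in 13 of 18 alternatives in all, among them the replicate block (0.0659), arrays centred (0.0594), quantile normalization again (0.0554), no moderation (0.0764) and chromosomes centred (0.0515). Gabarap (0.26), named after its value was seen, was the fourth that rose.

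Ligands of the VEGF family split. Besides Vegfa, Vegfb changed by -0.56 ± 0.05 (-0.33 with chromosomes centred) and Pgf by -0.42 ± 0.06, the latter below the array medians in both groups, whereas the lymphatic vessel factors Vegfd and Vegfc rose by 1.72 ± 0.07 (from 7.36 to 9.07; limma adjusted p = 1.38e-05) and 1.28 ± 0.09 (from 6.14 to 7.42). Of the receptors, the co-receptor gene Nrp1 rose by 1.03 ± 0.09 and Flt4, named after its value was seen, by 0.81. Flt4 rose from 4.88, below the array medians, so its size is not exact. Nrp2 was called at -0.45 but not with its rows averaged (-0.20, limma adjusted p = 0.0568). Flt1 and Kdr, the receptors for Vegfa itself, named after their values were seen, lay below the array medians in both groups and were not called. In all, 4 of these 9 genes rose and 3 fell (median 0.038). Of all rows 10.9% fell and 12.8% rose. Of the named genes above the median level, where 6 of the 9 lay, 25.1% fell and 26.1% rose.

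For adrenomedullin, 4 of 8 processing and receptor genes fell and 1 rose (median -0.14). Only 2 of the 8 lay above the median level. All rows gave 10.9% lower and 12.8% higher, and the named genes above that level 25.1% and 26.1%. The related peptide gene Adm2 went from 6.20 ± 0.13 to 4.62 ± 0.09 (limma adjusted p = 3.57e-05), to the low end, and the receptor gene Calcrl from 5.49 to 4.74. The log2 fold change of Adm2 was -1.58, or -1.07 with chromosomes centred. Ackr3 (-0.59), called at a limma adjusted p = 0.0238 but not without population array 1 or 2 or clone array 2 or 3 (0.0521 to 0.075), and Ramp3 (-0.35), named after its value was seen, lay below the array medians throughout. Pam, the enzyme that amidates such peptides, rose by 0.43 ± 0.07 from 10.11.

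Of 13 genes of oxidative protein folding, 6 fell and 0 rose (median -0.20). All 13 lay above the median level, where 25.1% of the named genes fell and 26.1% rose. At an unadjusted p under 0.05 in limma 8 were lower and 0 higher, and the authors' deposited p-values, adjusted, also gave 0 higher. Sil1, an exchange factor of the chaperone BiP, changed by -1.03 ± 0.10, and Gpx7, a peroxidase of the endoplasmic reticulum, by -0.78 ± 0.06 (-0.57 with chromosomes centred). Carbonic anhydrases and pH control genes gave 6 lower and 3 higher of 19 (median -0.027). Of the 19, 8 lay above the median level, with its shares of 25.1% lower and 26.1% higher. All rows gave 10.9% and 12.8%. The bicarbonate transporter genes Slc4a4 and Slc4a7 changed by -1.28 ± 0.05 and -1.16 ± 0.08, and the secreted anhydrase gene Car6 by -1.14, to the low end. The clone level of Slc4a4 was 5.31, near the array medians, so its size is not exact. Car13, a cytosolic anhydrase, rose by 0.87 ± 0.06 (limma adjusted p = 8.32e-05) from 10.03, Car3 by 0.74 from below the array medians (1.15 with chromosomes centred), and Car5b was called at 0.24 (adjusted p = 0.0178), a call lost without population array 1 or 2 or clone array 1 or 3 (0.0568 to 0.065). In the NDRG list 3 of 5 fell, against 25.1% of the named genes above the median level. Sgk1, the kinase that phosphorylates Ndrg1, was at -0.74 ± 0.05. Ndrg4 (-0.27, limma adjusted p = 0.029) lost its call without population array 2 or 3 or clone array 2 or 3 (0.057 to 0.0849).

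**Figure D4:**
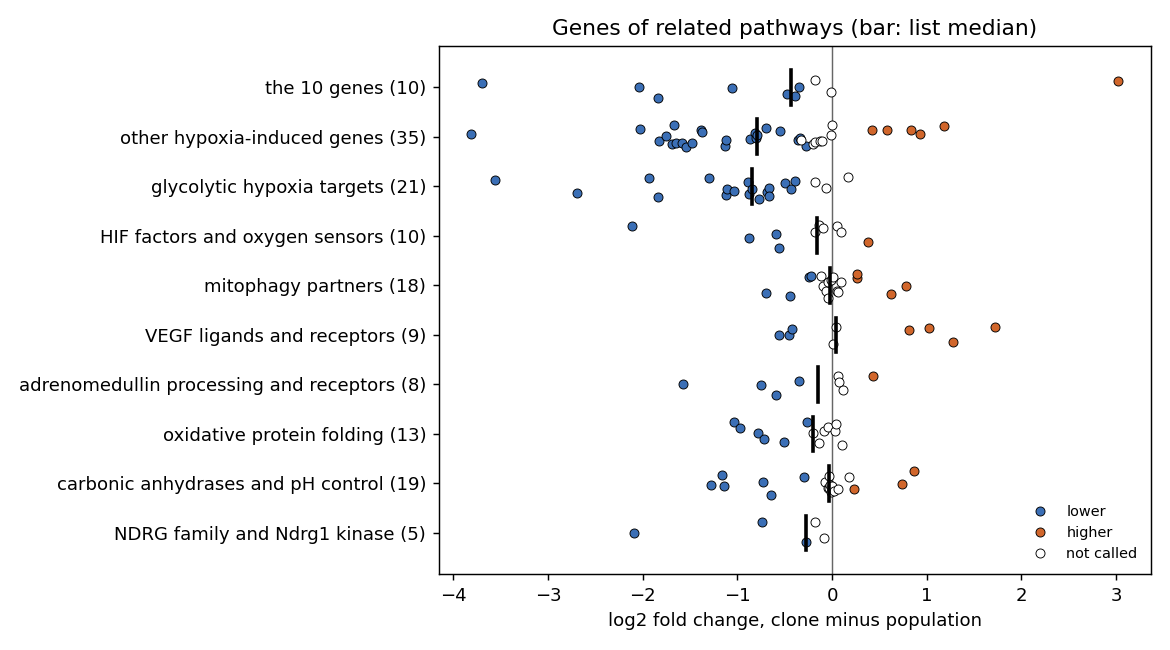
Log2 fold change, clone minus population (x axis), of every measured gene of the 10 genes and of 9 lists of related genes, with the number measured in brackets; bars are list medians and colours the call at an adjusted p under 0.05. Points of the hypoxia-induced and glycolytic lists lie mostly left of 0, with medians of -0.79 and -0.85, while the VEGF list lies on both sides.

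The named genes most like the mean of the 10 in their profile over the 6 arrays were Odz3, a teneurin, Egln3, Ctps, which makes CTP, Alkal1, a ligand of the kinase Alk, and Enpp1, which makes pyrophosphate. Their Pearson r lay between 0.99956 and 0.99963. The arrays fall into 2 groups, so r mainly follows the difference between them, and 618 of 11423 genes compared exceeded 0.99.

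Of 13 mesenchymal stromal markers, 12 lay above the array medians in the population and 10 in the clone; Eng (4.89 and 4.88) lay below in both, and Thy1 (4.61) and Nt5e (4.55) in the clone. Of these markers 7 fell and 3 rose, where 25.1% and 26.1% of the named genes above the median level did. The 3 that rose were Pdgfra, Pdgfrb and Prrx1, with log2 fold changes of 1.43, 0.77 and 0.50. Lepr, Thy1 and Nt5e had the lowest, at -1.83, -1.82 and -1.81. Of 10 blood cell markers, 2 lay above the array medians in the population (Cd53 and Cd14, at 5.35 and 5.37) and 0 in the clone. These were the 2 blood cell markers that fell, with log2 fold changes of -0.87 (limma adjusted p = 0.000149) and -0.60 (0.000891); 0 rose, also at an unadjusted p under 0.05. The summed linear level of the 10 was 281 to 289 in the population and 245 to 255 in the clone; Ptprc stood at 4.37 and 4.39. Of 7 endothelial markers, 0 and 1 lay above the medians (sums of 161 to 164 and 171 to 180), and 0 fell and 1 rose by limma (0 and 1 at an unadjusted p under 0.05): Egfl7 had a log2 fold change of 0.42 (adjusted p = 0.0367), while Pecam1 and Cdh5 stood at the low end. Of all rows 10.9% fell and 12.8% rose. The part of these markers in the results was not tested.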

How the data were processed

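Total RNA, extracted with TRI reagent and labelled with biotin as cRNA, was hybridised to Affymetrix arrays, per the labels' protocols. The authors deposited log2 expression values, for which the submitters' processing notes name RMA and Partek. RMA corrects background, normalizes the arrays by quantiles and summarises probes, which hides changes in total RNA and compresses changes of dim genes. No source used here names the array type, its annotation or a build. The authors' deposited table gives gene symbols, an unadjusted p-value and a signed linear fold change (treated as a score), per the file headers; its log2 fold matched the difference of group means to within 7.81e-05. The 6 per-array columns of that table carry names found in no label and were left out.

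Groups came from the labels. All 35556 rows entered lmFit and eBayes of limma 3.58.1 (R 4.3.3); degrees of freedom were 4 residual and 2.72 prior. Two-sided p-values were adjusted over the whole table by Benjamini-Hochberg, and an adjusted p under 0.05 was a call. The adjusted p printed for a gene came from limma's moderated test. With no moderation it came from an ordinary t-test on limma's linear fit. The fit was tested on simulated data. Pairs were tested by exact permutation. The number of arrays limits the precision. Of 25123 rows with a symbol, 18923 were current in RefSeq's GRCm38.p6 table, 3890 matched 1 older name and 2310 neither; chromosomes came from that table, and their medians from named genes above the median level.

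The 10 genes and the lists were chosen with earlier results of these data known. Named are the 10 genes, up to 3 called genes per list and direction, all HIF factors and sensors, the second gene of each pair and the 5 most alike; markers of cell types are named as examples, chosen, as were Flt1 and Kdr, after their values were seen; other such genes are marked in the text. Arrays 1, 2 and 3 of the groups are numbered alike in the labels. The alternatives took the sample number as a block, renormalization, centring of arrays or chromosomes, filters on rows, other moderation, stricter thresholds, averaged rows, the authors' p-values and leaving out each array.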

Additional observations from a re-analysis of the deposited data

How the results depend on the processing

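The 18 alternatives left 7 or 8 of the 10 genes lower, except a minimum of 1.5-fold, which left 4, and the filter on dim rows, which left 6 of 8; Stc1, Ndrg1, Ero1a, Bnip3 and Vegfa kept their direction and call in all 18. The minimum of 1.5-fold also left 1689 rows lower and 1416 higher and 3 of the other hypoxia-induced genes higher, by construction, and an adjusted p under 0.01 left 2531 rows higher. With chromosomes centred, in a fit of only the rows placed on a chromosome, 5974 rows were lower. That count is not over the same rows as the 3893 of the main fit. In the centred fit 2 of the 10 genes were higher, since Car9 went to 0.20 (limma adjusted p = 0.017) when the fall of chromosome 4 was added back to a gene at the low end. Hif1an then had 0.13, Arnt2 -0.10 and Epas1 -0.14. Leaving out single arrays took Car9 from -0.036 to 0.022, above 0 without population array 3 or clone array 1 (0.011), and Arnt2 from -0.027 (without population array 2) to 0.097; Arnt2 was at -0.0076 with quantile normalization. None of these sign changes concerns a gene called as reported. With only rows above the median level, which leaves out Car9 and Ankrd37, the median of the genes was -0.76. Leaving out single arrays gave 3208 to 3552 rows lower and 3422 to 4033 higher, 7 of the genes lower and 1 higher each time, and a median of -0.45 to -0.40. The sample number as a block (replicate block) left 3193 rows lower and 3476 higher, with 7 and 1 of the 10 genes. Same-numbered samples had deviations correlated at -0.184, -0.139 and -0.0353, and differently numbered ones at -0.0107 to 0.161. Such weak values cannot tell whether same-numbered samples shared more than a number. The call of Fundc1 was lost in 13 of 18 alternatives, that of Ndrg4 in 10 of 18, that of Ackr3 in 7 of 17 and that of Car5b in 7 of 18. Counts of small lists also moved. With chromosomes centred 7 mitophagy genes were lower, 7 carbonic anhydrase and pH genes higher and 1 folding gene higher. The minimum of 1.5-fold left 1 mitophagy, 0 VEGF, 4 folding and 2 NDRG genes lower, and 0 HIF, 2 mitophagy, 0 adrenomedullin and 2 carbonic anhydrase and pH genes higher. The filter on dim rows left 2 VEGF and 1 adrenomedullin genes lower and 2 carbonic anhydrase and pH genes higher, and averaged rows 2 VEGF genes lower. The block, or an adjusted p under 0.01, left 2 NDRG genes lower and 2 mitophagy and 2 carbonic anhydrase and pH genes higher; other moderation, the authors' p-values and single arrays left 2 NDRG genes lower. The signal of Car9 and Ankrd37, near the low end of the arrays, limits what these arrays can show of them.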
